A study of Salmo salar with 30 samples.

Results

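The 10 salmon fed corn gluten, with or without a package of feed additives, were set as 1 larger group against the 5 salmon fed the control diet, to ask what the larger group shows beyond each corn diet alone. The fish were chosen by the diet in their titles, and the 15 fish make up 15 of the 30 arrays of the series, 1 array per fish. The study profiled RNA from the distal intestine of Atlantic salmon (Salmo salar) on 1-colour Agilent microarrays, with 6 diets and 5 fish per diet. Fish of 177 g at the start were held for 67 days at 11.2 °C in 18 tanks.

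The first group was fed corn gluten (5 fish). The second was fed corn gluten with package 2, written P2, a mix of β-glucan at 0.1% of the feed, nucleotides at 0.05% and butyrate at 0.01% (5 fish). The reference for both was a feed high in fish meal (5 fish). Salmon fed soybean meal without a package (5 fish) served for further comparisons with the corn-fed and the control fish. The remaining diets were soybean meal with package 1, a mix of arginine and butyrate, and soybean meal with P2 (5 fish each). Their fish entered the shared fit, and some of their values are given beside those of the other diets. Which fish shared a tank is not stated, so every p-value takes the fish as independent and would be too small if tank mates resembled each other. Pea appears in the file names of the corn feeds, but not in the labels.

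Corn gluten is the protein fraction left after starch is taken from maize, and it is used in salmon feed in place of fish meal. The distal intestine is the segment in which soybean meal is known to cause inflammation in salmon, while corn gluten is regarded as better tolerated there. β-glucans are cell wall polysaccharides that innate immune cells recognise, butyrate is a short-chain fatty acid that gut cells use as fuel, and nucleotides are building blocks of DNA and RNA.

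Each value is the log2 of a probe's background-subtracted signal minus the array's 75th percentile, so that 0 is the 75th percentile of that array. A probe passed where limma's Benjamini-Hochberg adjusted p was below 0.05. Of 14841 probes, 13577 stood well above background in 5 or more of the 30 arrays and entered the test. The files used here give no gene for an identifier, and 0 of 14841 matched the gene table of the species, so probes are named by identifier and neither gene roles nor tissue markers could be checked. In such bulk tissue, fewer cells of a type and less RNA per cell cannot be told apart.

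The 15 corn and control arrays resembled each other closely. The number of probes well above background averaged 12953 ± 197 in corn-fed fish and 12770 ± 356 in control fish (SD, n = 10 and 5; p = 0.216 in a two-sided exact permutation test, 0.432 after adjustment over 4 array measures). The correlation between arrays over probes had a median of 0.973 for pairs of a corn-fed and a control fish. It was also 0.973 for pairs of corn-fed fish, and 0.978 for pairs of control fish. On the first principal component, which held 22.6% of the variance, corn-fed fish scored 10.5 ± 29.5 and control fish -21.1 ± 18.0 (p = 0.0523 in the same exact test, 0.209 after adjustment).

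Few probes separated the pooled corn-fed fish from the control fish, and most of those that did were higher with corn. In limma's fit, 13 of 13576 probes passed, which is 0.0958% of those tested. Of these, 10 were higher (0.0737%) and 3 were lower (0.0221%) in the corn-fed fish. With arrays scaled to their medians, 9 of 10 passing probes were higher. In a fit to the 15 corn and control arrays with 3 diets, 7 of 11 were. Without adjustment, 1179 probes had p below 0.05 (8.68%). The absolute log2 difference had a median of 1.50 over the 13 probes, with a range of 0.65 to 3.99, against a median of 0.13 over all probes tested. The count was 21 without control fish 4 and lay between 9 and 17 when any other of the 15 fish was left out.

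Ssa#TC110129 showed the largest difference of the probes that passed. Its signal was -0.30, -0.94, 0.24, 0.032 and 0.54 in the corn gluten fish. In the corn gluten + P2 fish it was -0.59, -0.029, -2.22, -1.37 and -0.92. In the control fish it was -5.73, -4.91, -2.67, -5.36 and -4.07. Every corn-fed fish lay above every control fish, although corn gluten + P2 fish 3 and control fish 3 came close. The pooled log2 difference was 3.99 ± 0.46 (SE), a 15.9-fold higher signal (limma, adjusted p = 5.8e-05).

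Ssa#S35491585 had a similar order of fish. Its signal was -1.46, -2.30, -1.26, -1.31 and -0.33 in the corn gluten fish and -1.49, -0.57, -3.21, -2.06 and -1.60 in the corn gluten + P2 fish. The control fish had -6.26, -6.20, -3.16, -4.59 and -5.45. Control fish 3 again stood highest of its diet and reached the level of corn gluten + P2 fish 3, so the groups overlapped by that pair. The pooled difference was 3.57 ± 0.52 on the log2 scale, or 11.9-fold (limma, adjusted p = 6.4e-04). With a normexp background correction the log2 differences of Ssa#TC110129 and Ssa#S35491585 were 2.26 and 1.58, while the median over all probes moved to -0.17.

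The other 3 probes in which no corn-fed fish overlapped a control fish are named because their values separated the groups. Ssa#GRASP223648271 had 2.63, 3.29, 3.33, 3.77 and 4.50 in corn gluten fish, 2.79, 3.06, 2.22, 2.87 and 3.18 in corn gluten + P2 fish, and 0.58, 1.14, 1.55, 1.56 and 1.25 in control fish. Its pooled log2 difference was 1.94 ± 0.26 (limma, adjusted p = 2.8e-04). Ssa#S50689380 had 0.82, -0.67, 0.35, -0.78 and 0.21 in corn gluten fish, 0.18, 0.20, 1.24, 0.77 and 0.96 in corn gluten + P2 fish, and -1.49, -2.08, -2.06, -1.65 and -1.97 in control fish. The control fish were tightly grouped while 2 corn gluten fish sat about midway, and the difference was 2.18 ± 0.27 (limma, adjusted p = 1.3e-04). Ssa#GRASP209155761 lay between 5.89 and 6.64 in the 10 corn-fed fish and between 4.90 and 5.75 in the control fish. It differed by 0.91 ± 0.15 on the log2 scale, or 1.88-fold (limma, adjusted p = 0.0051).

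**Figure D1:**
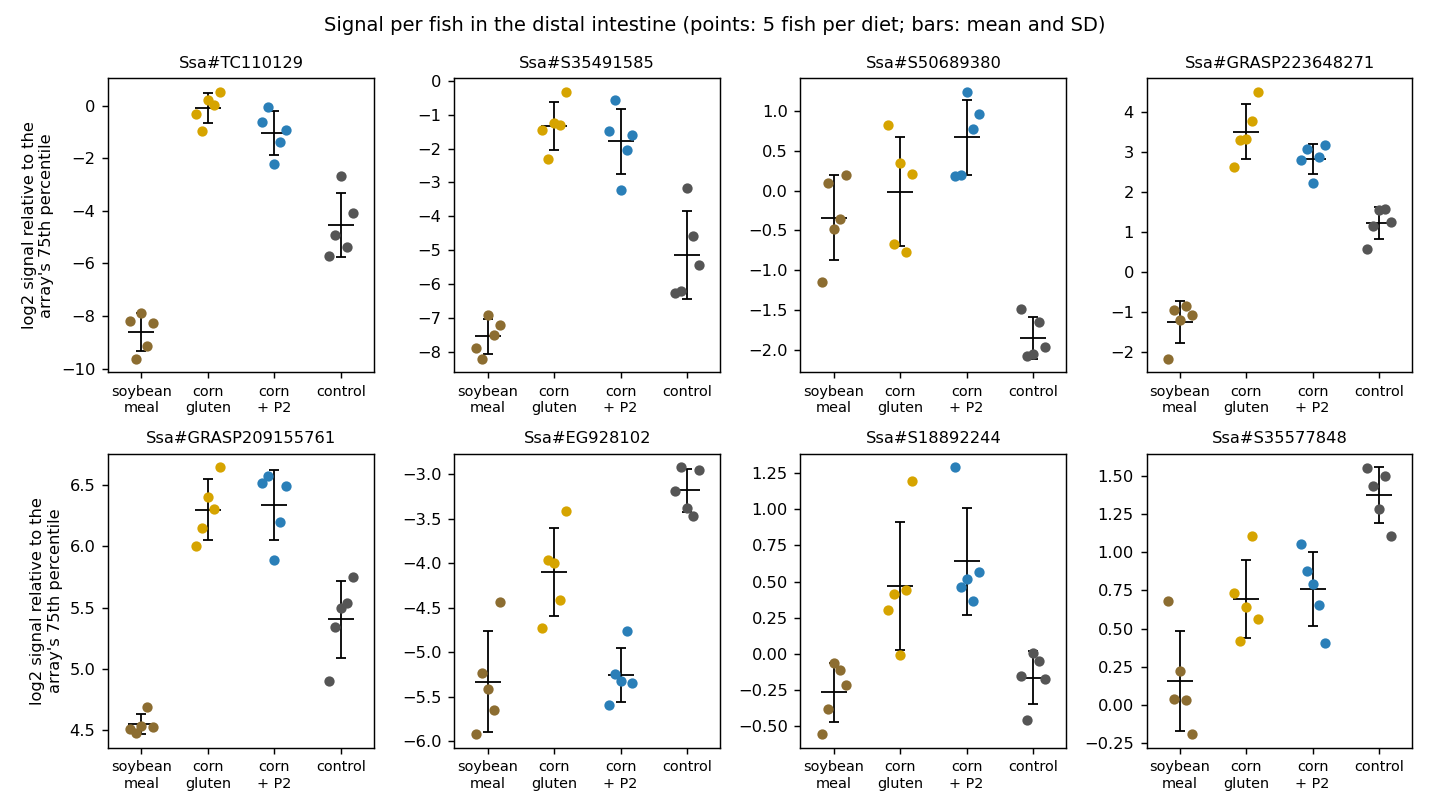
Signal per fish for 8 probes in salmon fed soybean meal, corn gluten, corn gluten + P2 or the control diet; the vertical axis is the log2 signal, with 0 at the 75th percentile of each array, points are fish and bars show mean and SD (n = 5). Ssa#TC110129 lies between -2.22 and 0.54 in corn-fed fish, against -5.73 to -2.67 in control fish.

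Non-overlap alone was rare across the array. All 10 corn-fed fish lay on one side of all 5 control fish in 25 of 13417 probes with a value in every fish (0.186%), 13 on the higher side (0.0969%) and 12 on the lower side (0.0894%). Of those 25, 4 were among the 13 that passed, and all 4 were higher. The remaining 21 had absolute log2 differences of 0.19 to 1.49, with a median of 0.50, and limma's adjusted p was between 0.0739 and 0.550.

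Of the 5 other higher probes, Ssa#S19103821 was the only one not well above background in any control fish. It was well above background in 9 of 10 corn-fed fish and 0 of 5 control fish. With the software's background subtraction only, this put it at least 2.65-fold higher with corn (measured means of -5.54 and -8.04; limma, adjusted p = 0.00132). It was well above background in 0 fish of the other diets. It thus entered the test through the corn-fed fish alone, and its p-value is a description. Its value depended on the background correction: with normexp its log2 difference was -0.15 (adjusted p = 0.740), and in the authors' value table it was 1.26 (adjusted p = 0.431). Counted over all 14841 probes, before the filter, 2 were well above background in at least 8 of 10 corn-fed fish and in 0 control fish. The second, Omy#S15319995, named after its values were seen, was well above background in 8 corn-fed fish and did not pass (adjusted p = 0.487).

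Ssa#S35590445 and Ssa#S35589996, named after their values were seen, varied together over the fish. Their pooled log2 differences were 1.56 ± 0.21 and 1.38 ± 0.21 (limma, adjusted p = 2.6e-04 and 8.3e-04). In a fit to the 15 corn and control arrays with 3 diets, Ssa#S35590445 passed and Ssa#S35589996 did not (limma, adjusted p = 0.0281 and 0.0985). Ssa#S35590445 lay between -0.16 and 1.79 in corn-fed fish and between -1.17 and -0.015 in control fish, and the overlap came from corn gluten + P2 fish 3 and 4. The remaining higher probes were Ssa#S48407805, with a difference of 1.03 ± 0.18, and Ssa#S18892244, with 0.72 ± 0.15.

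Of the 3 probes lower with corn, Ssa#EG928102 had the largest difference. Its signal was -4.73, -3.97, -3.99, -4.41 and -3.41 in the corn gluten fish and -5.59, -5.25, -5.32, -4.77 and -5.35 in the corn gluten + P2 fish. The control fish had -3.18, -2.92, -3.38, -3.47 and -2.95. The corn gluten fish lay between the other groups, and corn gluten fish 5 fell inside the control range. The pooled log2 difference was -1.50 ± 0.26 (limma, adjusted p = 0.0064), and with normexp it was -0.87 (adjusted p = 0.114). Ssa#GRASP209733347 differed by -0.78 ± 0.16 (adjusted p = 0.044) and Ssa#S35577848 by -0.65 ± 0.13 (adjusted p = 0.037).

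A probe with a larger fitted difference than any of the 13 did not pass. Ssa#TC93758, singled out after its values were seen, had a fitted log2 difference of 7.79 ± 2.09 (limma, adjusted p = 0.243). Only 3 of 5 control fish were well above background, so this size depends on the background correction. All 10 corn-fed fish lay between 1.78 and 3.39. Control fish 5 was at 2.41, inside that range, while the other control fish were at -9.08, -8.00, -6.10 and -6.39. Soybean meal fish took high, low and intermediate values, at -9.66, 1.82, -9.56, -3.05 and 1.26. With soybean meal and package 1 they were -5.93, -8.63, -7.92, 1.04 and -9.60, and with soybean meal and P2 1.31, 0.73, 1.28, 2.07 and -9.63. The probe was thus at a high level in all 10 corn-fed fish and in 1 of 5 control fish, and values above 0 also occurred in every soybean meal diet.

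Set beside the single diets, the pool added 2 probes. Corn gluten alone gave 9 passing probes against control (0.0663%), all higher, and corn gluten + P2 gave 14 (0.103%), of which 10 were higher (0.0737%) and 4 lower (0.0295%). These comparisons share the 5 control fish with the pooled one, so their lists are not independent. All 9 corn gluten probes and 8 of the 14 corn gluten + P2 probes were among the pool's 13, and 6 probes passed in all 3 comparisons. At an unadjusted p below 0.05, which 6.05% of probes met with corn gluten and 11.4% with corn gluten + P2, 82 of the pool's 1179 probes were called in neither diet alone. Of the 2028 called in at least 1 diet, 931 were not called in the pool. Leaving out 1 fish moved the corn gluten + P2 count to 3, 7 or 4 without fish 1, 2 or 5 of that diet, and to 5, 7 or 6 without control fish 1, 2 or 5.

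The probes passing in the pool and in neither diet alone were Ssa#S18892244 and Ssa#S35577848. Ssa#S18892244 had 0.30, 0.42, -0.012, 0.44 and 1.20 in corn gluten fish, 1.29, 0.46, 0.52, 0.37 and 0.57 in corn gluten + P2 fish, and -0.15, -0.46, 0.0061, -0.050 and -0.17 in control fish. Its adjusted p was 0.049 in the pool, 0.567 for corn gluten and 0.0598 for corn gluten + P2 (limma). Ssa#S35577848 lay between 0.42 and 1.11 in corn gluten fish and between 0.41 and 1.05 in corn gluten + P2 fish, against a median of 1.43 and a highest value of 1.55 in control fish, and of the corn-fed fish only corn gluten fish 4 reached the lowest control fish. Its adjusted p was 0.037 in the pool, 0.137 for corn gluten and 0.141 for corn gluten + P2 (limma). For both probes the 2 diets had near-equal differences from control, 0.64 and 0.81 for Ssa#S18892244 and -0.68 and -0.62 for Ssa#S35577848. Passing in the pool and in neither diet alone favours such near-equal differences, so they are a description. Neither call was stable: when each of the 15 fish was left out in turn, Ssa#S18892244 passed in 3 of 15 fits and Ssa#S35577848 in 4 of 15, and with median scaling neither passed.

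**Figure D2:**
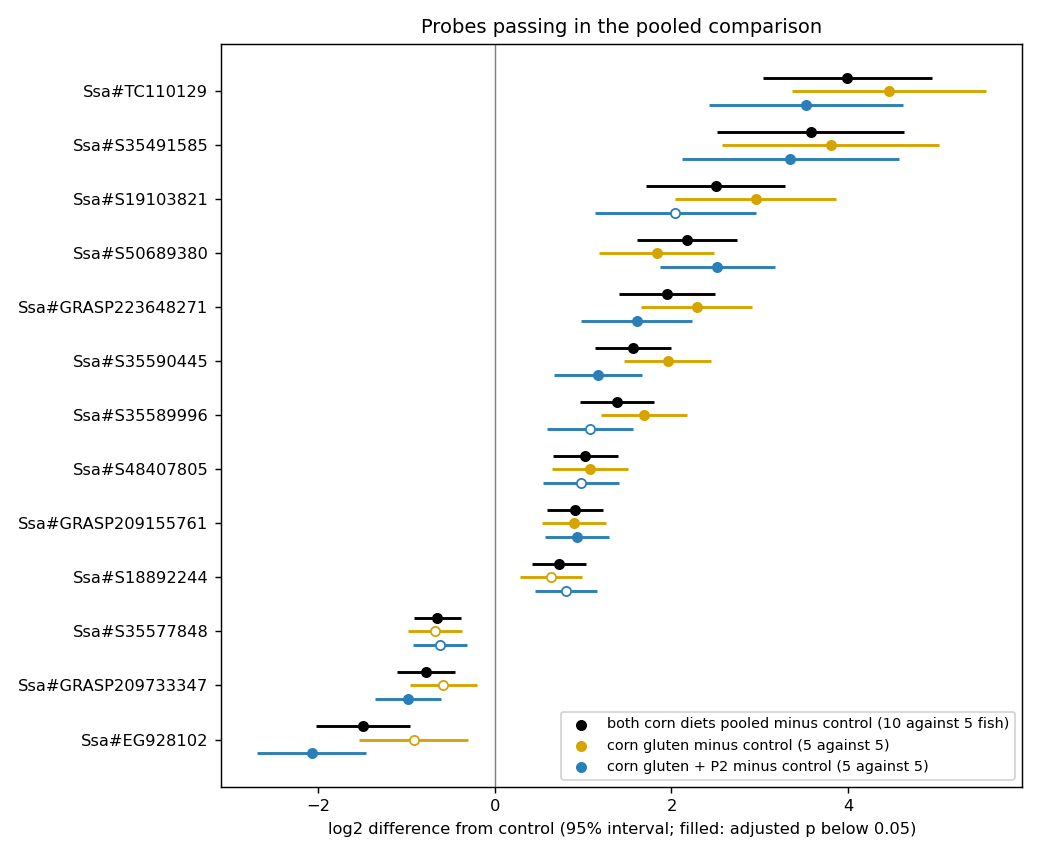
Log2 difference from control with its 95% interval for the 13 probes passing in the pooled comparison, shown for both corn diets pooled (black), corn gluten (yellow) and corn gluten + P2 (blue); filled points have an adjusted p below 0.05. Ssa#S18892244 and Ssa#S35577848 are filled in black only.

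Conversely, 6 probes passed with corn gluten + P2 and not in the pool, 4 higher and 2 lower. Their absolute log2 differences were 0.68 to 4.07 with corn gluten + P2 and 0.059 to 0.79 with corn gluten, and their pooled adjusted p was 0.0841 to 0.271. The one with the largest fitted difference, Omy#S18154208, was named after its values were seen. It had -1.66, -3.94, -3.13, -2.83 and -3.29 in corn gluten + P2 fish, -3.76, -9.60, -6.73, -6.40 and -4.74 in corn gluten fish, and -7.54, -7.90, -8.63, -4.27 and -6.83 in control fish. The corn gluten + P2 fish lay above all control fish, and of the corn gluten fish only fish 1 reached their range. Only 2 of 5 control fish and 4 of 5 corn gluten fish were well above background, so the size of this difference depends on the background correction. In the direct comparison of the corn diets, none of the 6 passed (limma, adjusted p between 0.229 and 0.735). An unadjusted p below 0.05 was met by 5 of them, against 7.57% of all probes. The rule that picked these 6 favours a gap between the corn diets, so this count and the sizes above are a description.

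Whether the pool hides a difference between the corn diets was tested by setting corn gluten + P2 against corn gluten directly, a contrast that uses no control fish. The corn diets shared no array slide: corn gluten fish were on slides 4 and 6, corn gluten + P2 fish on slides 1 and 5. Package and slide thus cannot be told apart in this contrast. By limma, 0 of 13577 probes passed (0%), with 1028 at an unadjusted p below 0.05 (7.57%) and a lowest adjusted p of 0.229. No other processing setting gave a passing probe, and 1 passed without corn gluten + P2 fish 4. The 95% interval lay within 2-fold in either direction for 77.9% of probes, so larger differences remain possible for the rest.

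Among the pool's 13 probes, this difference had a median absolute size of 0.60, against 0.14 over all probes. The 13 were also less precisely measured: the SE of their pooled difference had a median of 0.208, against 0.162 over all probes. Of the 10 higher probes, 7 had lower values with corn gluten + P2 than with corn gluten and 3 had higher values. At an unadjusted p below 0.05 there were 6 of the 13, against 7.57% of all probes. The pooled test that chose the 13 uses the same estimate of spread, which favours a low p here, so this count is a description. Ssa#S35590445 and Ssa#S35589996, which varied together, were both among the 6. Package and slide cannot be told apart in these values either. The lowest adjusted p among the 13 was 0.386 (limma), for Ssa#EG928102 with a difference of -1.15. For Ssa#GRASP209155761 the corn diets gave 6.34 ± 0.29 with P2 and 6.30 ± 0.25 without (SD, n = 5 each), a difference of 0.034 with a 95% interval of -0.33 to 0.40.

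**Figure D3:**
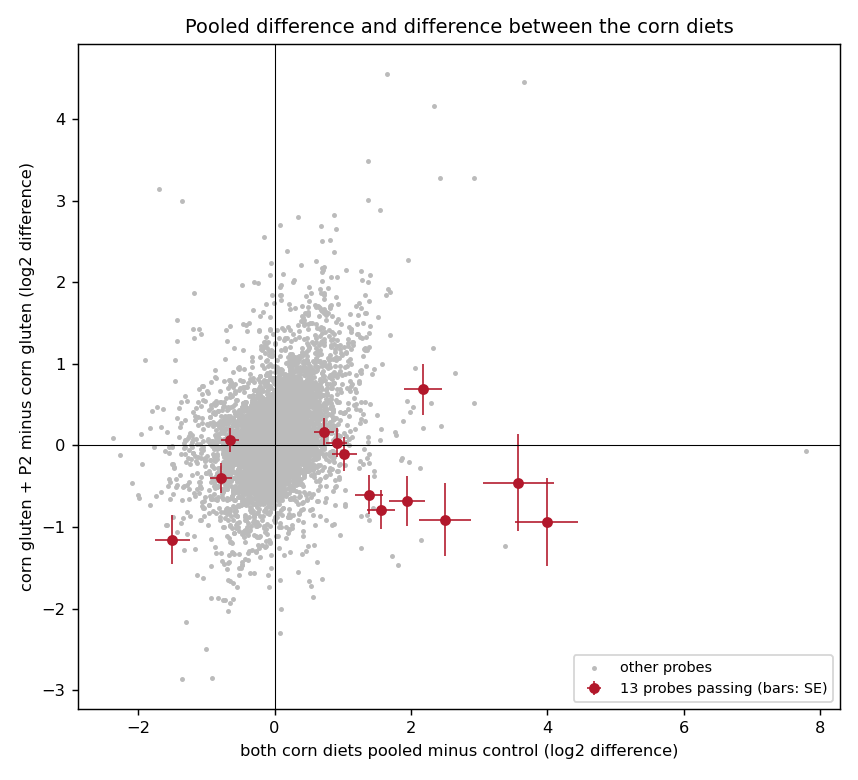
Each point is a probe, with the pooled log2 difference from control on the horizontal axis and the log2 difference of corn gluten + P2 from corn gluten on the vertical axis; the 13 passing probes are red with SE bars. The red points spread from -1.50 to 3.99 horizontally and from -1.15 to 0.69 vertically, and the grey point farthest right is Ssa#TC93758.

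The larger group also narrowed what could have been missed. The pooled difference had a median SE of 0.162 over probes, against 0.187 for either corn diet alone, a ratio of 0.866 that the numbers of fish fix. The 95% interval of the difference from control lay within 2-fold for 82.1% of probes in the pool, for 79.2% with corn gluten and for 76.0% with corn gluten + P2. Within 1.5-fold, these shares were 61.1%, 55.0% and 52.3%. At that resolution, 192 probes had a pooled difference over 2-fold at an unadjusted p below 0.05, and 9 of the 13 that passed were over 2-fold.

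The 10 corn-fed fish further allowed the co-variation of these probes inside diets to be tested, which neither diet of 5 fish allows. Values were centred on the mean of each diet, which removes the difference from control. The probes were still chosen in these same fish, and probes that vary together tend to pass together. That favours positive r among the higher probes, so the correlations and their p-values are a description. Of 78 pairs among the 13 probes, 13 passed (permutation within diets, two-sided, 100000 draws, adjusted over 78 pairs), all positive and all between probes higher with corn, and 10 passed by Spearman's rho. Of the 13 passing pairs, 5 included Ssa#S19103821, the probe that entered the test through the corn-fed fish alone. The 45 pairs of higher probes had a median r of 0.63, and of 0.55 without the 2 most distant fish of each pair. Pairs of a higher probe with any probe outside the 13 had a median r of 0.018, and 3.36% of them reached the median of the 45. The outside probes were not matched in direction, so positive and negative r offset each other in that median. The same 45 pairs had a median r of 0.32 in the 5 control fish. In the 15 fish fed soybean meal, with or without a package, it was 0.22. Ssa#S19103821 was well above background in 0 fish of the control and soybean meal diets. Ssa#TC110129 was so in 0, 0 and 1 of 5 fish of the soybean meal diets, and Ssa#S35491585 in 2, 0 and 3. Pairs with these probes thus hold values near background, and whether r differed between diets was not tested.

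Apart from Ssa#S50689380, fish with more of a higher probe tended to have more of the others, although only 13 of the 45 pairs passed. Since no identifier matched a gene, whether the probes of a pair read the same transcript could not be checked. Ssa#TC110129 and Ssa#S35491585 had r = 0.976 and rho = 0.964 over 10 fish (permutation, adjusted p = 0.0039 and 0.0159), and r = 0.931 without the 2 most distant fish. Ssa#S48407805 and Ssa#GRASP209155761 had r = 0.938 and rho = 0.927 (permutation, adjusted p = 0.0039 and 0.0159), and r = 0.837 without 2 fish. Ssa#S35590445 and Ssa#S35589996 had r = 0.975 and rho = 0.915 (permutation, adjusted p = 0.0125 and 0.0439), and r = 0.944 without 2 fish. When values were centred by slide as well, an alternative chosen after seeing the data, the median r of the 45 pairs was 0.60. The r of Ssa#S35590445 and Ssa#S35589996 was then 0.788, and that of Ssa#TC110129 and Ssa#S35491585 was 0.989.

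Ssa#S50689380 stood apart from the other higher probes. Its r with each of the other 9 was below 0, between -0.62 and -0.19, and none of these 9 pairs passed. Without it, all 36 pairs of higher probes had r above 0, with a lowest value of 0.29 and a median of 0.70. Pairs of a higher and a lower probe had a median r of 0.094, and 0 of 30 passed by either coefficient.

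**Figure D4:**
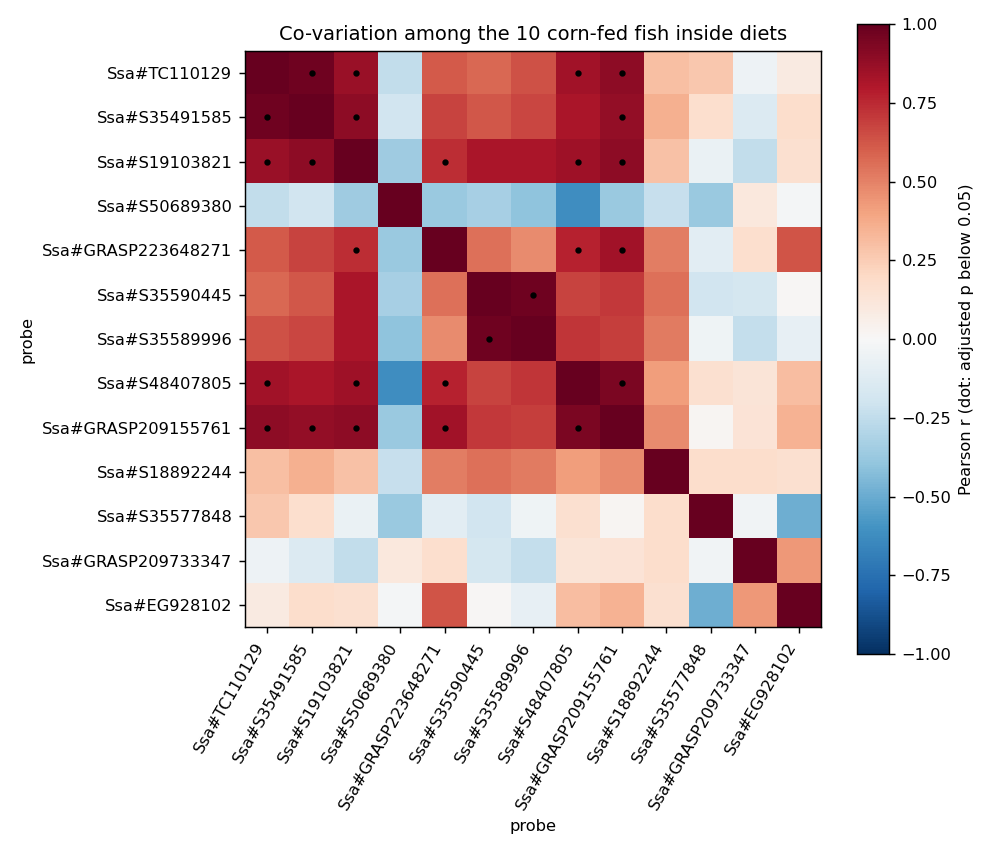
Pearson correlation between the 13 passing probes over the 10 corn-fed fish after centring on diet means, from -1 (blue) to 1 (red); dots mark pairs with a permutation adjusted p below 0.05. Ssa#S50689380 forms a blue band among the higher probes.

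Soybean meal, the other plant protein, was set against the pooled corn fish on the same probes. Over the whole array 4293 of 13577 probes passed (31.6%), 1864 higher (13.7%) and 2429 lower (17.9%) with soybean meal. The balance depended on the scaling: 2109 of 4130 passing probes were higher with arrays scaled to their medians, 2206 of 4308 with quantile normalization, 1918 of 3726 in the authors' value table and 1300 of 2561 with normexp, which moved the median difference over all probes to 0.12. All 13 of the pool's probes were lower with soybean meal than with corn, and 11 passed (9 with normexp). These corn fish are the ones that chose the 10 higher probes, which favours a lower value in any other diet, so the count is a description.

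For the lower probes the order of soybean meal, pooled corn and control was the same in all 3. Ssa#EG928102 averaged -5.33 ± 0.56 in soybean meal fish, -4.68 ± 0.72 in the 10 corn-fed fish and -3.18 ± 0.25 in control fish (SD). Its corn mean joined -4.10 ± 0.50 with corn gluten and -5.26 ± 0.30 with corn gluten + P2, the latter close to soybean meal. Between soybean meal and pooled corn, this probe did not pass (limma, adjusted p = 0.0557), while the other 2 did. Against control, all 3 were lower with soybean meal (limma, adjusted p below 0.05), where 30.3% of all probes passed and 17.4% were lower. The same control fish had chosen these 3 probes as high, which favours a lower value in any other diet, so this too is a description.

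Among the 10 higher probes, soybean meal against control gave 6 that passed as lower (3 with normexp), 1 that passed as higher and 3 that did not pass. Lower calls made up 17.4% of all probes and higher calls 12.9%. Among the 6 lower, Ssa#S19103821 was well above background in 0 of 5 fish of either diet, so its call compares values near background. The 1 higher was Ssa#S50689380, at -1.15, 0.091, -0.48, -0.36 and 0.20 in soybean meal fish, a log2 difference of 1.51 ± 0.32 from control (limma, adjusted p = 7.2e-04). Ssa#TC110129 went the other way. It was well above background in 0 of 5 soybean meal fish and 10 of 10 corn-fed fish. With the software's background subtraction, this put it at least 106-fold higher with corn (measured means of -8.61 with soybean meal and -0.56 with corn; limma, adjusted p = 9.0e-12). That bound holds for this background correction only. Ssa#GRASP223648271 averaged -1.25 ± 0.53 in soybean meal fish, against 3.16 ± 0.63 in corn-fed fish and 1.22 ± 0.40 in control fish (SD).

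Corn-fed and control fish shared 2 of the 6 array slides, which allowed values within a slide. On slide 1, with 2 corn gluten + P2 fish and 2 control fish, and on slide 6, with 2 corn gluten fish and 1 control fish, all 13 probes kept their direction. The median difference of the 10 higher probes was 1.04 on slide 1 and 2.02 on slide 6, against 1.75 over all fish. The corn-fed fish were corn gluten + P2 fish on slide 1 and corn gluten fish on slide 6, so slide and package cannot be told apart in these values. The gap between slides was widest for 3 higher probes. Ssa#S19103821 differed by 1.03 on slide 1 and 2.93 on slide 6, Ssa#S35590445 by 0.47 and 2.03, and Ssa#S35589996 by 0.30 and 2.01. With slide as a block in limma, 8 probes passed, 7 of them among the 13, and all 13 kept their direction. The corn-fed and control fish used here are the ones that chose the 13 probes. That favours the same direction on each slide and with the block, so the kept direction is a description.

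**Figure D5:**
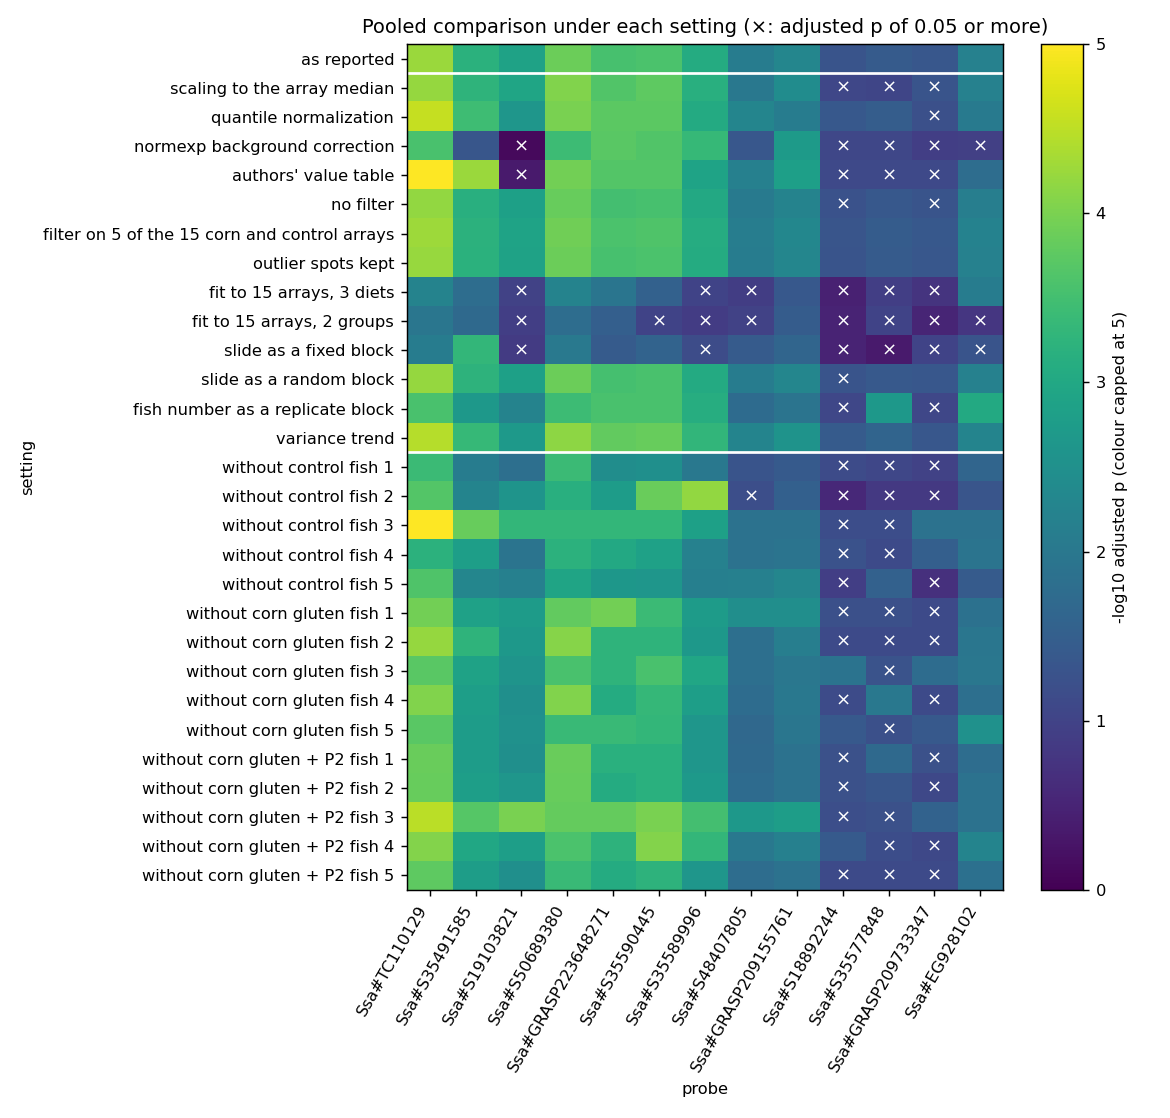
Adjusted p of the 13 probes in the pooled comparison under each processing setting and with each fish left out (down the page); brighter cells have a lower adjusted p and crosses mark values of 0.05 or more. Ssa#TC110129, Ssa#S35491585, Ssa#S50689380, Ssa#GRASP223648271 and Ssa#GRASP209155761 carry no cross.

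Across 13 other settings and 15 fits without 1 fish, 5 probes passed every time, and all 5 were higher with corn. They were Ssa#TC110129, Ssa#S35491585, Ssa#S50689380, Ssa#GRASP223648271 and Ssa#GRASP209155761. Ssa#S35590445 failed in 1 setting, a fit to the 15 corn and control arrays as 2 groups. Of the 3 lower probes, Ssa#EG928102 passed in 10 of 13 settings and in 15 of 15 fits without 1 fish, while Ssa#S35577848 passed in 7 and 4 and Ssa#GRASP209733347 in 4 and 5.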

How the data were processed

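Total RNA of the distal intestine was amplified and labelled with Cy3, per the labels' protocols. The authors deposited scanner files made with Feature Extraction 12.0.1.1, per the file headers. The processed signal in them is a linear intensity from which the software had subtracted background, with no normalization across arrays. The authors' value table holds intensity values that equal, within 1 unit for at least 98.3% of values per array, the spot median minus local background times 1 factor per array (0.522 to 0.764). Its column medians were 73 to 101, it is linear and not centred, and 14191 cells were blank. It served as an alternative.

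Signals were put on the log2 scale and shifted so that the 75th percentile of the 14841 non-control probes was 0 on every array. Outlier spots (598) were set missing, and 0 were saturated. Arrays had 12491 to 13376 probes well above background, and the number of arrays limits the precision. Probes well above background on at least 5 of 30 arrays (13577) were fitted with limma 3.58.1 in R 4.3.3, with 1 coefficient per diet over all 30 arrays and eBayes without trend. The pooled contrast is the mean of both corn coefficients minus control. One probe lacked values in all control fish, so 13576 were tested against control. Each comparison was adjusted by Benjamini-Hochberg. The fit was checked on simulated data. "At least" folds set the brighter group's mean against, per array, the higher of the lowest signal well above background and the probe's own.

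Alternatives were other scalings, normexp with an offset of 50, the value table, filters, 15-array fits, blocks, a variance trend and leaving out each fish. Normexp used the spot median signal, a choice made after seeing the files, because these hold no mean signal column. The members, comparisons and probes were chosen with earlier results of these data known. The naming rule was the 2 highest and 2 lowest passing probes, well above background on every array of the higher side, and the same for probes passing in the pool only. The planned gene and marker lists were not analysed here, since no identifier matched a gene. Correlations used 10 fish and permutation within diets. Fish numbers did not pair the samples: the 15 same-numbered pairs of fish had a median correlation of deviations of -0.069 (-0.40 to 0.22), and 2 were over 0.1.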

Additional observations from a re-analysis of the deposited data

Results flagged for a closer look

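Of 45 groups of 5 fish examined, 1 held a fish far from the others, and chance alone is expected to give about 1 in 20. Ssa#S18892244 was at 1.29 in corn gluten + P2 fish 1, while the other 4 fish of that diet lay between 0.37 and 0.57. This probe is 1 of the 2 that passed in the pooled comparison only. Its adjusted p over all fish was 0.049 by limma.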

How the results depend on the processing

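The pooled count of 13 was 8 with slide as a fixed block and 8 in a 15-array fit with 2 groups. It lay within 1.5 times of 13 in the other 11 settings, and without 1 fish it ranged from 9 to 21. The 15-array fits take no spread from the soybean meal fish. In them, 7 of the 13 probes themselves passed with 3 diets and 5 with 2 groups. Corn gluten against control (9) gave 5 with normexp, 3 in a 15-array fit with 3 diets and 3 with the slide block, and 7 to 12 without 1 fish. Corn gluten + P2 against control (14) gave 6, 9 and 2 in those settings, and 3 to 19 without 1 fish. Corn gluten + P2 against corn gluten gave 0 to 1, and soybean meal against the pooled corn fish gave 2561 with normexp and 3862 to 4419 without 1 fish. The count of probes passing in the pool only (2) became 0 with median scaling and 4 with the slide block. It was 1 with the value table, no filter, slide as a random block or a variance trend, and 0 to 5 without 1 fish. The probes themselves changed as well. Neither Ssa#S18892244 nor Ssa#S35577848 was among them with the slide block, the value table, normexp or the 15-array fit with 3 diets. The same held with fish number as a replicate block. With fish number as a replicate block, 12 probes passed in the pool, 8 with corn gluten and 18 with corn gluten + P2, and 1 in the pool only; the numbers do not pair the fish. Ssa#S19103821 reversed with normexp, to -0.15. Of 364 values of the 13 probes under all alternatives, 292 kept their call. The causes were not tested. Precision is limited by 5 fish per diet.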
